A study of Mus musculus with 9 samples.

Results

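The acylglycerophosphate acyltransferases Agpat1, Agpat2, Agpat3, Agpat4 and Agpat5, with the glycerol-3-phosphate acyltransferase Gpam, were followed in mouse LLC1 cells after contact with T cells. They are 6 of the 19305 genes listed in the series. Agpat1 was chosen by its deposited values, which were higher with both Th9 and Th17 than with Th0 cells, and its 5 relatives were taken by family. The differences of Agpat1 from Th0 are therefore given as a description with no test, and the question was whether the relatives differed in the same way.

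LLC1 is a line of Lewis lung carcinoma, a mouse lung tumour. It was cultured for 24 h in contact with T cell subsets generated in vitro and labelled Th0, Th9 or Th17, at 1 T cell per LLC1 cell, and RNA was sequenced from what remained once CD4+ cells had been removed by sorting. Each group has 3 libraries, all groups contain T cells, and no library of LLC1 cells alone was analysed here. Separate cultures are not named for the 3 libraries of a group, so p-values cover the spread between these libraries alone, which may be technical.

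Glycerophospholipids are built on glycerol-3-phosphate. Glycerol-3-phosphate acyltransferases (Gpam on the outer mitochondrial membrane, Gpat3 and Gpat4 in the endoplasmic reticulum) add a fatty acid to give lysophosphatidic acid, and acylglycerophosphate acyltransferases add another to give phosphatidic acid. Phosphatidic acid is the branch point of the pathway: phosphatases turn it into diacylglycerol, the precursor of phosphatidylcholine, phosphatidylethanolamine and triacylglycerol, while CDP-diacylglycerol synthases lead to phosphatidylinositol and cardiolipin.

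Agpat1 (ENSMUSG00000034254) lies at chr17:34604262-34613449 on the plus strand of GRCm38, and Agpat4 (ENSMUSG00000023827) at chr17:12118704-12219645, also on the plus strand. Agpat2 (ENSMUSG00000026922) lies at chr2:26593057-26604417, Agpat3 (ENSMUSG00000001211) at chr10:78269178-78352489 and Gpam (ENSMUSG00000024978) at chr19:55069734-55099451, all on the minus strand. Agpat5 (ENSMUSG00000031467) lies at chr8:18846277-18891361 on the plus strand. In GENCODE M21, exons of Agpat1 share 101 bases with Egfl8 on the opposite strand, and those of Agpat2 share 64 bases with Egfl7. Exons of Agpat5 share 2043 bases with Gm35934 and those of Agpat3 16 with Gm40709, also on the opposite strand. Neither Gm35934 nor Gm40709 was listed. Egfl8 had deposited values of 19 to 48 and Egfl7 of 56 to 110. Use of the strand in counting is not given in the sources used here, so reads in the shared bases cannot be assigned.

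The sequences before the transcription starts of 3 members are shown because these genes moved in 3 different ways: Agpat1 was higher with both T cell subsets, Agpat4 rose with Th9 cells and Agpat2 fell with Th9 cells. RefSeq start sites (GRCm38.p6) were found for 5 of the 6 members, all but Agpat5. Each line gives the 250 bases before a start, 5′ to 3′ on the strand of the gene, and capitals mark matches on either strand to CCAAT or GGGCGG, or to TGANTCA. The Agpat1 window is chr17:34605611-34605860, before a start within the gene model, the Agpat4 window is chr17:12119034-12119283 and the Agpat2 window is chr2:26604418-26604667 on the minus strand.
Agpat1: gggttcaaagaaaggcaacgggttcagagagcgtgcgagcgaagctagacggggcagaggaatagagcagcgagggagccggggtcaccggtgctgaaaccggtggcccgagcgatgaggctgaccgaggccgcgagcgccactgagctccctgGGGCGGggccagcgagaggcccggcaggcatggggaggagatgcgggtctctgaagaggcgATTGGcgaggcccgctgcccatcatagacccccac
Agpat4: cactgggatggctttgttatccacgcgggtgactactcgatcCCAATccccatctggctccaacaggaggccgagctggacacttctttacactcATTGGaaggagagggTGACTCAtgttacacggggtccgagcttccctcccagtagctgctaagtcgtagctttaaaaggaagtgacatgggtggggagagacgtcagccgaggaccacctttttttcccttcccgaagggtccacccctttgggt
Agpat2: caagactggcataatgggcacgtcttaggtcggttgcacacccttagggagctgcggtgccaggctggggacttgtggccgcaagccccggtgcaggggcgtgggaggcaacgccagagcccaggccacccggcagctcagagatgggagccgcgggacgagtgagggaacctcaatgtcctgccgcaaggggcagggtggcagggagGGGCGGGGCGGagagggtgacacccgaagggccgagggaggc

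The Agpat1 window shown held 1 CCAAT and 1 GGGCGG, the Agpat4 window 2 CCAAT and 1 TGANTCA, and the Agpat2 window 2 GGGCGG that overlap and no CCAAT. Of 32851 RefSeq promoter windows of the same length, 33.8% held CCAAT, 32.7% GGGCGG and 6.75% TGANTCA. A search for CACGTG (6.02% of windows), TGATGNAA (3.45%), TCACNCCAC (1.05%) and TATAAA (12.4%) found no match in these 3 windows. G and C made up 67.6% of the Agpat1 window, 69.2% of the Agpat2 window and 55.2% of the Agpat4 window, beside a median of 52.4% over all windows. RefSeq gives a further Agpat1 start, whose window (chr17:34608764-34609013, 54.4% G and C) held 1 GGGCGG and no CCAAT.

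Depth was 12719490 to 17504852 approximate assigned reads a library. Th0 replicate 1 stood apart: mt-Rnr1, mt-Rnr2 and Gm26917 took 31.1% of its reads and 14.9% to 21.8% of the other libraries' reads. Vim and the keratin genes Krt8 and Krt18 were present in every library, while Cdh1, Epcam and the lung epithelial gene Nkx2-1 were not listed. With Th9, 1 of 2 tested epithelial markers was lower (Krt8, 1688 to 2470 in Th0 and 956 to 1255 in Th9 libraries), as were 2 of 5 mesenchymal markers (Col3a1, 18951 to 19964 and 7214 to 7864, and Col1a1, 16 to 21 and 5 in each), and with Th17 0 of these 7 were called. T cell markers (22 genes) summed to deposited values of 218 to 338 in Th0 and 1732 to 2456 in Th9 libraries, with 16 of 18 tested genes higher. The pan-leukocyte gene Ptprc had 6 to 51 in Th0 and 401 to 551 in Th9 libraries, Cd3e 2 to 5 and 54 to 86, Cd3g 2 to 8 and 254 to 352, and Cd4 8 to 18 and 17 to 23. In the table with Th17 the T cell marker sum was 218 to 330 in Th0 and 188 to 222 in Th17 libraries, 0 of 6 tested markers were higher by limma (0 also at an unadjusted p under 0.05), Cd3e was not listed, and Cd3g was at 0, 1 and 0 in the Th17 libraries. B cell markers (6 genes) summed to 83 to 295 in Th0 and 12 to 18 in Th17 libraries, with 2 of 3 tested genes lower (Ighm 49 to 196 and 2 to 4). In the table with Th9 they summed to 81 to 287 in Th0 and 84 to 99 in Th9 libraries. There 1 of 3 tested was lower, and Igkc had 11 to 46 and 1 to 5. Of 4 tested myeloid markers, 1 was higher and 1 lower with Th9, and 0 were called with Th17. With Th9, Cd14 had 26 to 41 in Th0 and 58 to 67 in Th9 libraries, and Lyz2 11 to 33 and 0 to 2. In bulk RNA, fewer cells of a type and less RNA per cell cannot be told apart.

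Agpat1, an enzyme of the endoplasmic reticulum that acylates lysophosphatidic acid, was the member with the largest difference from Th0 in both comparisons. Its deposited values, which are normalised read numbers, were 574, 608 and 530 in Th0 and 1211, 1151 and 874 in Th9 libraries. In the table with Th17 it had 590, 622 and 544 in the same Th0 libraries and 1190, 1134 and 1108 in Th17 libraries. All 6 Th9 and Th17 libraries were above all Th0 libraries, and Th9 replicate 3, which also had the lowest T cell marker sum of its group, was the lowest of the 6. The mean went from 570.7 ± 39.11 to 1079 ± 179.8 (SD, n = 3) with Th9, a log2 difference of 0.91 (SE 0.12) or 1.87-fold on the log2(value + 1) scale used for all fitted differences. With Th17 it went from 585.3 ± 39.21 to 1144 ± 41.9, a log2 difference of 0.97 (SE 0.08) or 1.95-fold. Both comparisons use the same Th0 libraries, and without Th0 replicate 1 the log2 differences were 0.91 and 0.97. Of 14475 genes tested in Th9 against Th0, 666 had a larger rise than Agpat1, and of 14342 in Th17 against Th0, 74 had one. The part of T cell RNA, and of the B cell and myeloid markers called with Th9, in the Th9 value was not tested. That of the lower B cell markers in the Th17 value was not tested either.

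**Figure D1:**
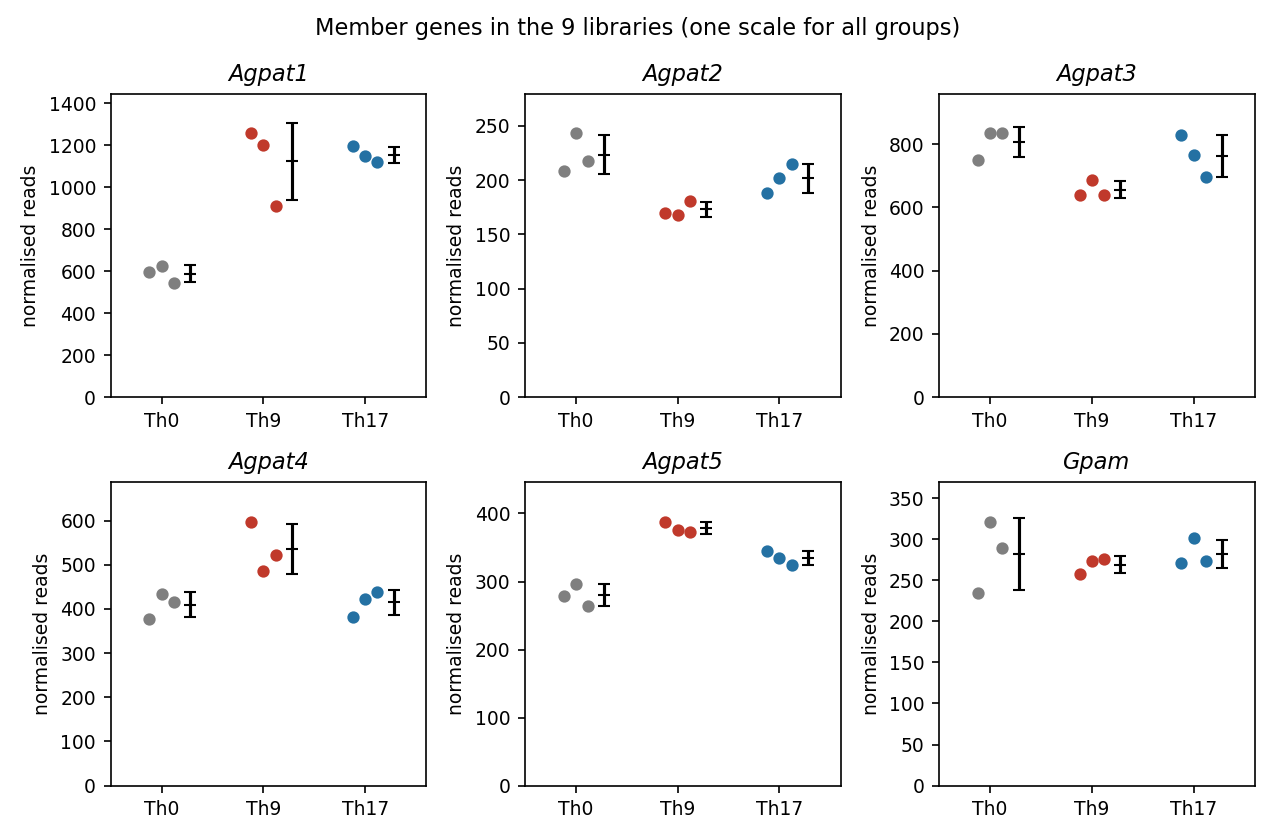
Normalised reads of the 6 members in each of the 9 libraries, with all groups brought to 1 scale by TMM; the points are libraries and the bars beside them are the mean ± SD of 3. Agpat1 is higher in all Th9 and Th17 libraries than in all Th0 libraries, Agpat4 and Agpat5 stand highest with Th9, Agpat2 and Agpat3 lowest with Th9, and the Gpam groups overlap.

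Among the 5 relatives, Agpat4 and Agpat5 rose with Th9 cells, Agpat2 and Agpat3 fell, and Gpam did not pass the test (limma-trend with Benjamini-Hochberg adjustment over all genes). Over all genes tested in Th9 against Th0, 25.2% were called, 13.4% higher and 11.9% lower, and the groups did not overlap in 21.4% (higher) and 19.2% (lower). Without Th0 replicate 1 the same 4 relatives were called, at log2 differences of -0.43 for Agpat2, -0.37 for Agpat3, 0.31 for Agpat4 and 0.41 for Agpat5. That fit called 2594 of 14366 genes higher and 2742 lower. All 6 members passed the filter on low values (a mean of at least 10) in every comparison.

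Agpat5, a mitochondrial member of the family, had 269, 289 and 258 in Th0 and 374, 360 and 357 in Th9 libraries. Every Th9 library was above every Th0 library, with a log2 difference of 0.42 (SE 0.10), 1.34-fold, at a limma adjusted p of 0.00771. Without Th9 replicate 1 the adjusted p was 0.0531. Agpat4, an acyltransferase of lysophosphatidic acid known mainly from brain, had 364, 422 and 406 in Th0 and 576, 467 and 502 in Th9 libraries. These groups did not overlap either, and Th9 replicate 1 was the highest library. The log2 difference was 0.37 (SE 0.10), 1.29-fold, with a limma adjusted p of 0.022, and the call was lost without Th9 replicate 1 (adjusted p = 0.137) or Th9 replicate 3 (0.0596).

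Agpat2 acts in the endoplasmic reticulum like Agpat1, and its loss causes congenital lipodystrophy in people. Its values were 201, 237 and 212 in Th0 and 163, 161 and 174 in Th9 libraries, so that all Th9 libraries were the lower ones. The log2 difference was -0.38 (SE 0.12), with a limma adjusted p of 0.0309. Agpat3, an enzyme of the endoplasmic reticulum and Golgi, had 723, 812 and 814 in Th0 and 616, 660 and 614 in Th9 libraries, again without overlap. Its log2 difference was -0.31 (SE 0.09), with a limma adjusted p of 0.0202. Both calls were lost without any 1 of the libraries Th0 replicate 2, Th0 replicate 3, Th9 replicate 1, Th9 replicate 2 or Th9 replicate 3, where limma's adjusted p was 0.0583 to 0.116 for Agpat2 and 0.0524 to 0.0992 for Agpat3. With libraries scaled to the same total, which moved the median of all genes by 0.11, the log2 differences were -0.27 (adjusted p = 0.188) and -0.2 (0.27).

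Gpam, the mitochondrial enzyme of the step before, had 226, 313 and 282 in Th0 and 248, 262 and 265 in Th9 libraries. The Th9 values lay inside the Th0 range, and the log2 difference was -0.07 (95% interval -0.34 to 0.2) with a limma adjusted p of 0.722. T cell markers were higher and Krt8 and Col3a1 lower in all 3 Th9 libraries, beside each of these differences, and their part in them was not tested.

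**Figure D2:**
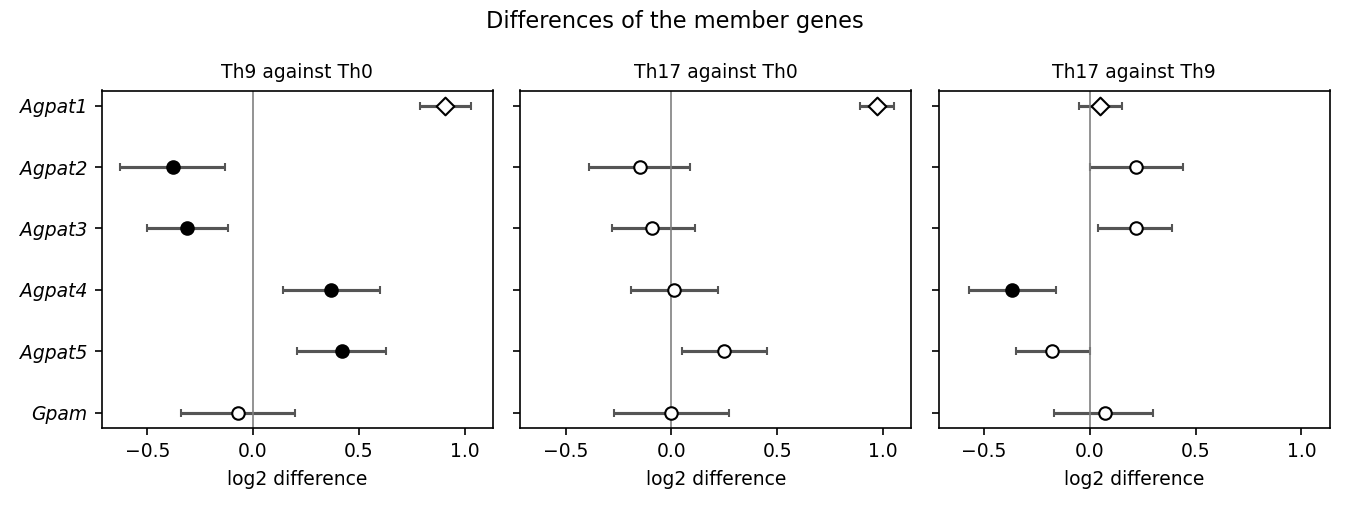
Log2 differences of the 6 members in the 3 comparisons; bars on circles are 95% intervals, filled circles passed an adjusted p of 0.05, and diamonds (Agpat1, not tested) carry ± SE. Agpat1 is at 0.91 with Th9 and 0.97 with Th17, while the relatives lie between -0.38 and 0.42 with Th9 and between -0.15 and 0.25 with Th17.

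With Th17 cells, 0 of the 5 relatives were called by limma-trend, where 1.58% of all 14342 tested genes were called, 1.19% higher and 0.390% lower. At an unadjusted p under 0.05, 1 of the 5 was higher and 0 lower (9.68% and 8.61% of all genes). Without Th0 replicate 1 the call count of the relatives was also 0, with Agpat5 at a limma adjusted p of 0.0719. That fit called 974 of 14209 genes higher and 1378 lower. With all libraries, Agpat5 came nearest, with 277, 295 and 264 in Th0 and 343, 330 and 321 in Th17 libraries. These groups did not overlap, as in 12.8% of all genes in this direction. Its log2 difference was 0.25 (95% interval 0.05 to 0.45), 1.19-fold, at a limma adjusted p of 0.18. The other relatives overlapped between groups. Agpat2 had 207, 242 and 217 in Th0 and 188, 199 and 213 in Th17 libraries, a log2 difference of -0.15 (-0.39 to 0.09). Agpat3 had 744, 830 and 835 and then 823, 758 and 689, a log2 difference of -0.09 (-0.28 to 0.11). These 2 intervals hold 0, as do the next 2. Agpat4 had 375, 431 and 416 and then 380, 418 and 435, a log2 difference of 0.01 (-0.19 to 0.22), and Gpam had 233, 320 and 290 and then 269, 298 and 271, a log2 difference of 0.0 (-0.27 to 0.27). B cell markers were lower in the Th17 libraries, beside these values, and their part in them was not tested.

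Th17 was then set against Th9 directly, on approximate reads of all 9 libraries brought to 1 scale. Agpat1, which was chosen for being high in both of these groups, is again given without a test: it had 1154 ± 38.7 with Th17 and 1123 ± 185 with Th9 (SD, n = 3). The log2 difference was 0.05 (SE 0.10). Agpat4 was the 1 relative called, at 414.9 ± 29.14 with Th17 and 535.7 ± 56.83 with Th9, without overlap. The log2 difference was -0.37 (SE 0.09), with a limma adjusted p of 0.0119. The Th9 libraries are the same ones in which Agpat4 was called higher than in Th0. That call was lost without Th9 replicate 1 (adjusted p = 0.0795) or Th17 replicate 1 (0.0774). In this comparison 20.9% of all tested genes were called (9.67% higher, 11.2% lower), and the groups did not overlap in 22.0% (higher) and 22.9% (lower). With 1 of the 5 relatives called, the count was near the share of all genes and is not a result about the family.

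The members that had fallen with Th9 were higher with Th17 than with Th9 in every library, but missed the limma threshold: Agpat2 at 0.22 (95% interval 0.0 to 0.44, adjusted p = 0.155) and Agpat3 at 0.22 (0.04 to 0.39, adjusted p = 0.0727). Agpat3 passed without Th0 replicate 1 (adjusted p = 0.0128) or Th17 replicate 3 (0.0392). Agpat5 was at -0.18 with an adjusted p of 0.148, and Gpam at 0.07 with 0.738.

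Levels were compared between members as RPKM, that is reads divided by the exon length and by all assigned reads of a library. Those reads include mt-Rnr1, mt-Rnr2 and Gm26917, at 31.1% in Th0 replicate 1, where each member had its lowest Th0 level. Ratios of groups on this scale are therefore not the fitted differences given above. Agpat1 was the highest member in each group, at 13.3 ± 1.07 in Th0, 27.01 ± 4.23 in Th9 and 26.4 ± 0.59 in Th17 libraries (SD, n = 3). Agpat4 came next at 10.3 ± 1.38, 14.3 ± 1.46 and 10.5 ± 0.88 on this scale. Agpat2 (7.12 ± 0.934, 5.87 ± 0.293 and 6.5 ± 0.505) and Agpat3 (7.05 ± 0.921, 6.08 ± 0.242 and 6.71 ± 0.512) overlapped in each group and could not be ordered. Gpam stood at 2.89 ± 0.611, 2.92 ± 0.132 and 2.9 ± 0.212, and Agpat5 was the lowest at 1.76 ± 0.15, 2.54 ± 0.0397 and 2.12 ± 0.0478. Apart from Agpat2 and Agpat3, no 2 neighbours in this order overlapped within a group. The lengths are those of all exons of a gene joined, from 2130 bases for Agpat2 to 10783 for Agpat5, so that an unused long exon would lower a level. For Gpam alone, the GENCODE M21 gene (chr19:55067268-55127238) is not the one given with the deposited values (chr19:55069734-55099451). Its length may therefore not match its reads, which leaves its level and its place above Agpat5 uncertain.

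Shares within the family were taken from these levels, so a higher Agpat1 by itself lowers the shares of its relatives. Agpat1 was 31.9% to 35.5% of the summed per-kilobase reads of Agpat1 to Agpat5 in Th0, 43.4% to 51.1% in Th9 and 49.3% to 52.0% in Th17 libraries. The share of Agpat2 averaged 18.0%, 10.6% and 12.4% in the 3 groups and that of Agpat3 17.8%, 10.95% and 12.85%. Agpat4 made up 26.0% ± 1.0 in Th0, 25.7% ± 2.4 in Th9 and 20.2% ± 1.5 in Th17 libraries. Summed per-kilobase levels of Agpat2 to Agpat5 were 26.2 ± 3.32, 28.8 ± 1.27 and 25.9 ± 0.92 RPKM in Th0, Th9 and Th17. Within Th0, replicate 1 was at 22.42 and replicates 2 and 3 were at 28.4 and 27.91. With Agpat1 added the sums were 39.5 ± 4.23, 55.8 ± 4.55 and 52.2 ± 0.664. These shares contain the Agpat1 difference that chose the members and are given without a test.

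**Figure D3:**
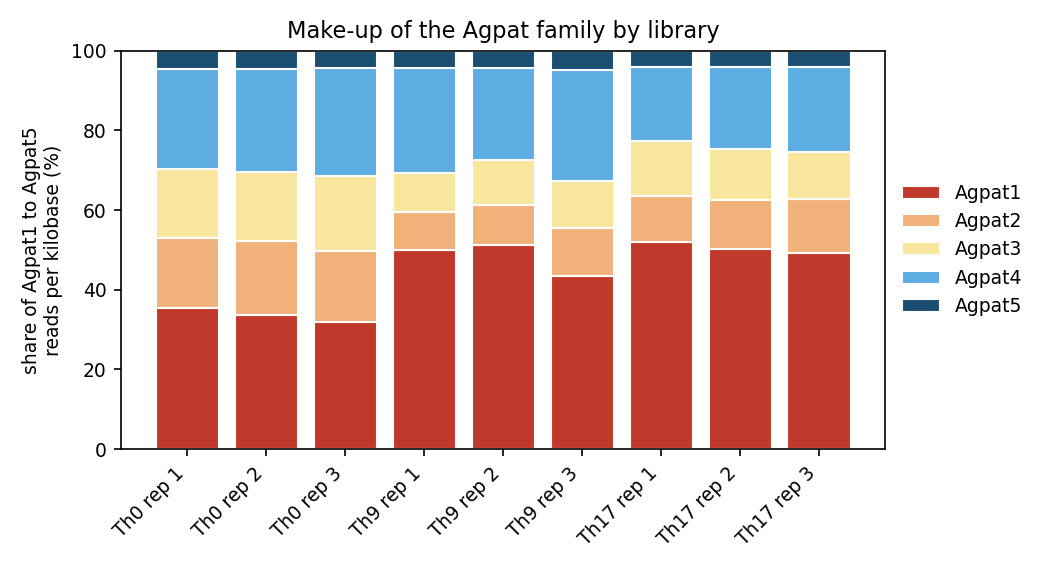
Share of each Agpat gene in the summed reads per kilobase of Agpat1 to Agpat5, in percent, as stacked bars for the 9 libraries. Agpat1 takes 31.9% to 35.5% in the Th0 libraries and 43.4% to 52.0% in the others.

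None of the genes beside Agpat1 on chromosome 17 was called higher with either T cell subset, where 13.4% of all genes were with Th9 and 1.19% with Th17. Of 10 listed genes within 50 kb, 9 were tested: 0 were called higher and 1 lower with Th9, and 0 were called with Th17 (limma, adjusted p under 0.05). At an unadjusted limma p under 0.05, 0 were higher with Th9 and 1 with Th17, beside 19.2% and 9.68% of all genes. The 1 was Gpsm3 (log2 difference 0.48, SE 0.14, adjusted p = 0.108). Gpsm3 and Pbx2 were higher in every Th17 than in every Th0 library, as were 12.8% of all genes, and the other tested neighbours overlapped there. The gene called was Ager, the receptor for advanced glycation end products, whose mean was 100.7 in Th0 and 61.67 in Th9 libraries (log2 difference -0.68, SE 0.20, adjusted p = 0.0278). Rnf5, a ubiquitin ligase gene on the minus strand, has its 5′ end 571 bases before Agpat1. It was at -0.15 (SE 0.15) with Th9 and -0.2 (SE 0.14) with Th17. Egfl8, which overlaps the far end of Agpat1 on the other strand, was at 0.05 (SE 0.30) and -0.38 (SE 0.31).

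**Figure D4:**
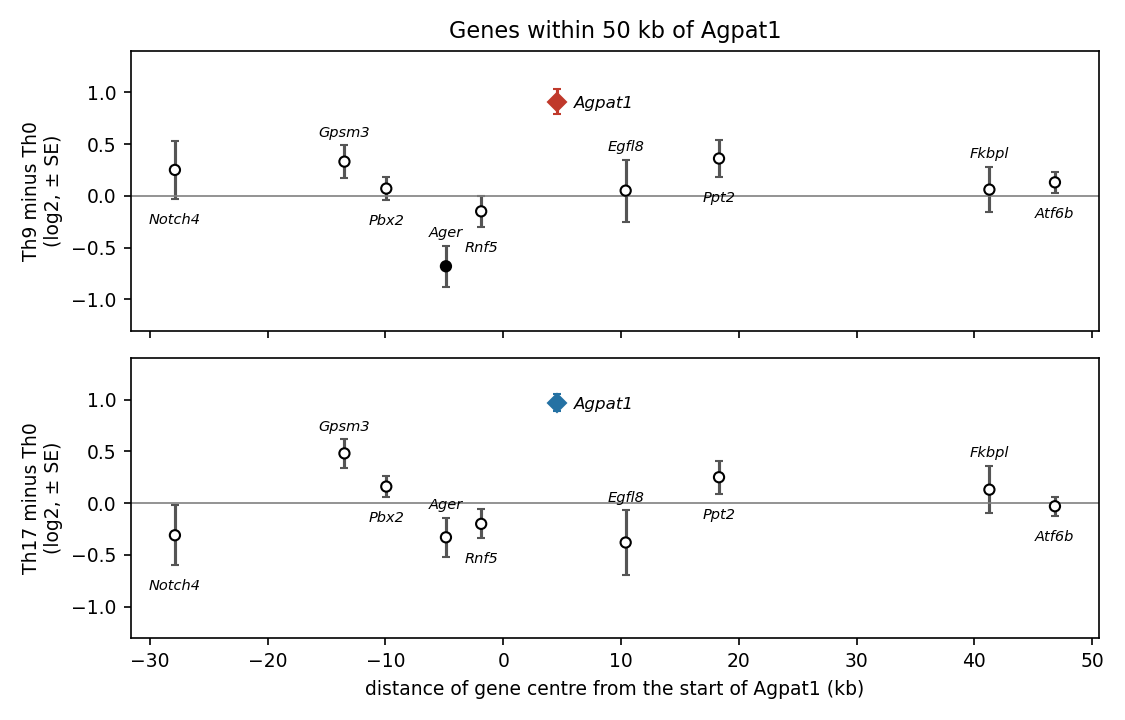
Log2 difference from Th0 (± SE) of the 9 tested genes within 50 kb of Agpat1 and of Agpat1 itself, against the distance of each gene's centre from the Agpat1 start in kilobases. The Agpat1 diamond is at 0.91 with Th9 and 0.97 with Th17, and its neighbours lie between -0.68 and 0.48; the filled circle (Ager) was called.

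Over the 9 libraries the genes whose log2 values followed Agpat1 most closely were Tnfaip1 (Pearson r 0.991), Mapk1ip1l (0.986), Atp6ap1 (0.986), Acot7 (0.986) and Capzb (0.985), out of 9734 genes compared. Tnfaip1 had mean normalised reads of 587.7 with Th0, 863.7 with Th9 and 859.7 with Th17. Atp6ap1, which encodes an accessory subunit of the vacuolar proton pump, had 370.1, 646.3 and 616.6. Acot7, an acyl-CoA thioesterase gene, had 661.3, 1041 and 1049. These correlations are descriptions: the points share libraries, depth and the same 3 groups.

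Of the relatives, Agpat5 had the highest r with Agpat1 (0.87 over the 9 libraries), followed by Agpat4 (0.44). Gpam (-0.11), Agpat3 (-0.52) and Agpat2 (-0.69) had negative values, though none of these was called with Th17. These r hold the Agpat1 difference that chose the members and restate the group differences above, so they are descriptions only. The genes most like Agpat5 were Mtpap (0.986), St3gal1 (0.985) and Wdr75 (0.985), and for Agpat4 they were Bhlhe40 (0.972), Fam179b (0.968) and Ambra1 (0.962). Pmf1 (0.984), Rnf103 (0.967) and Plin3 (0.966) were nearest to Agpat2, and Nsrp1 (0.987), Ssb (0.974) and Hmgb2 (0.971) to Agpat3. For Gpam, the closest genes were Gata2 (0.919), Cand1 (0.917) and Slc35b4 (0.917).

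The other genes of glycerophospholipid synthesis were read from a list of 66. With Th9 cells, 58 were tested, 15 were called higher and 5 lower by limma-trend. This is 34.5% of those tested, beside 25.2% of all genes. The median log2 difference of the list was 0.04 and that of all genes -0.01. Gpat2, Lpcat2, Mboat2, Plpp3, Dgat2, Dgkg, Cds1 and Etnk2 were below the filter or not listed.

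Of the enzymes that share the Gpam step, Gpat4 was called lower with Th9 cells and Gpat3 missed the threshold. Gpat4's values were 1056, 1309 and 1527 in Th0 and 962, 909 and 960 in Th9 libraries, a log2 difference of -0.44 (SE 0.12, limma adjusted p = 0.0157). Leaving out Th0 replicate 3 (adjusted p = 0.0687) or any of the Th9 replicates 1 (0.0566), 2 (0.0745) and 3 (0.0516) ended that call, as did scaling to equal totals (-0.33, adjusted p = 0.138). Gpat3, listed under its older name Agpat9, had 106, 124 and 112 in Th0 and 145, 145 and 141 in Th9 libraries, at 0.33 (95% interval 0.05 to 0.61) with a limma adjusted p of 0.0775. These groups did not overlap, and Gpat3 passed when libraries were scaled to equal totals (adjusted p = 0.0462), also when the 3 RNA genes were left out of those totals (0.0441), and with array weights (0.0199). Acsl6, an acyl-CoA synthetase that activates the fatty acids these enzymes use, rose: 485, 458 and 495 in Th0 became 1101, 1088 and 1095 with Th9, 2.28-fold at a limma adjusted p of 1.14e-06.

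Among the genes that the list groups under lysophospholipid acylation, 2 of 9 tested rose with Th9 and 1 fell. This is 33.3% called, beside 25.2% of all genes. Lclat1, which acylates lysocardiolipin and related lysophospholipids, went from 406, 439 and 415 to 732, 615 and 626, a log2 difference of 0.64 (limma adjusted p = 0.000449). Lpcat4 went from 252, 181 and 170 to 437, 393 and 253, 0.83 at an adjusted p of 0.00918. Its Th9 replicate 3 was only 1 above Th0 replicate 1, and the call was lost without Th9 replicate 1 (adjusted p = 0.058) or Th9 replicate 2 (0.0525). Mboat1, a lysophospholipid acyltransferase of another family, fell from 190, 261 and 262 to 133, 170 and 147, at -0.65 and an adjusted p of 0.00785. Lpcat1 (-0.26), Lpcat3 (-0.07), Mboat7 (-0.14) and Abhd5 (-0.19) were not called.

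Downstream of phosphatidic acid, the phosphatase Lpin2 rose with Th9 (0.56, limma adjusted p = 0.000646), from 731, 661 and 652 to 1084, 981 and 953. Plpp1, a phosphatase of the cell surface, fell (-0.85, adjusted p = 0.000378), from 226, 247 and 265 to 124, 149 and 136. Lpin1 (-0.22, adjusted p = 0.0646) and Lpin3 (0.89, adjusted p = 0.166, at 4 to 17 in these libraries) were not called. Dgka, the diacylglycerol kinase that makes phosphatidic acid and is abundant in T cells, rose from 185, 177 and 181 to 353, 307 and 279 (0.78, limma adjusted p = 0.000419). Crls1, cardiolipin synthase, rose by 0.62 (adjusted p = 0.00128). The 2 genes for the enzyme that makes CDP-choline parted: Pcyt1b was called higher (0.58, adjusted p = 0.00498) and Pcyt1a lower (-0.5, adjusted p = 0.0147), a call that ended when Th0 replicate 3 (0.069) or either of the Th9 replicates 1 (0.0794) and 3 (0.06) was left out, and with equal totals (-0.39, 0.0966). Cds2 (0.12) and Dgat1 (-0.22) were not called. T cell marker sums of 218 to 338 in Th0 and 1732 to 2456 in Th9 libraries stood beside all these values, as did the lower Krt8 and Col3a1, and their part in them was not tested.

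**Figure D5:**
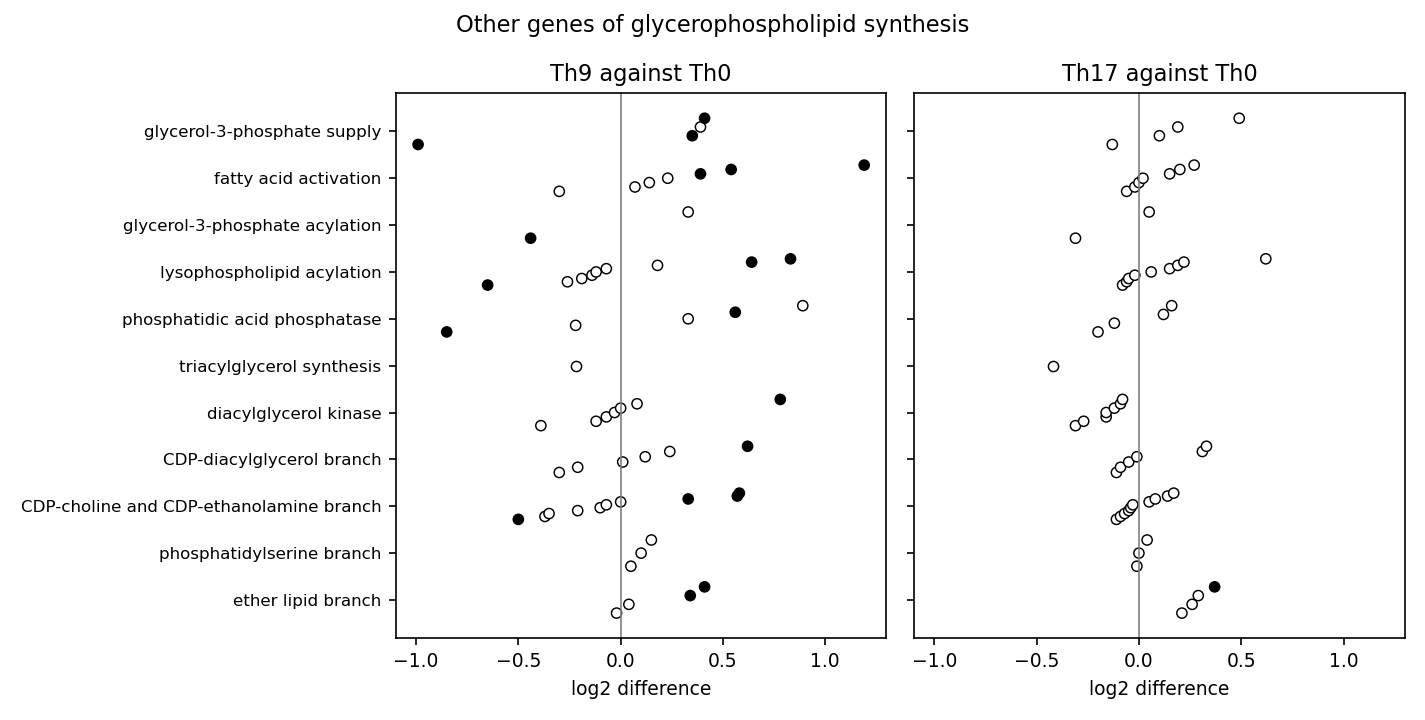
Log2 difference from Th0 of the tested genes of the glycerophospholipid list, by role, with Th9 (58 genes) and Th17 (57 genes); filled circles passed an adjusted p of 0.05. With Th9, 15 genes are filled on the right and 5 on the left, and with Th17 the 1 filled circle is Agps in the ether lipid branch.

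With Th17 cells, 57 list genes were tested, 1 was called higher and 0 lower by limma-trend, which is 1.75% beside 1.58% of all genes. At an unadjusted p under 0.05, 10 were higher and 2 lower, which is 21.1% of the list beside 18.3% of all genes. The median log2 difference of the list was -0.01. The gene called was Agps, which makes the ether bond of plasmalogens, with 1410, 1588 and 1577 in Th0 and 1954, 1887 and 2047 in Th17 libraries (0.37, limma adjusted p = 0.0455). The call was lost without Th0 replicate 3 (adjusted p = 0.125), Th17 replicate 1 (0.222), Th17 replicate 2 (0.174) or Th17 replicate 3 (0.27). With equal library totals Agps was not called (adjusted p = 0.183) and Lpcat4 was (0.0299). Lpcat4 had 259, 185 and 175 in Th0 and 330, 293 and 317 in Th17 libraries, without overlap, at 0.62 and an adjusted p of 0.0603. Without Th0 replicate 1, 3 list genes were higher and 2 lower, in a fit that called 974 of 14209 genes higher and 1378 lower. Lpcat4 (0.8, limma adjusted p = 0.000104), Gpat4 (-0.45, 0.000575), Crls1 (0.34, 0.0437) and Pcyt1a (-0.25, 0.0363) passed there but not with all libraries. With all libraries Gpat4 was at -0.31 (adjusted p = 0.184), Lclat1 at 0.22 (0.18), Gpat3 at 0.05 (0.884), Lpin2 at 0.12 (0.443) and Cds2 at -0.05 (0.773).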

How the data were processed

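Total RNA of sorted LLC1 co-cultures was sequenced in 9 libraries (3 groups of 3), from 1 µg of RNA with a stranded SMARTer kit, per the labels' protocols. Per the submitters' processing notes, DESeq2 1.62, STAR 2.4.0a and featureCounts 1.4.5-p1 were among the tools, in unstated roles, and GRCm38 and mm10 the builds. The authors deposited 2 tables of scores per gene, which by their values are whole-number read counts after division by a factor of each library and rounding, with factors set anew for Th9 and for Th17; both hold the 3 Th0 libraries. Approximate reads are the deposited score times the factor, found from the steps of the values (Th0 reads from the 2 tables were equal within 1 for at least 99.96% of 18022 genes). Sums of these reads gave depth; precision rests on 3 libraries a group.

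Genes were tested with limma-trend (limma 3.58.1, R 4.3.3) on log2(value + 1), for means of at least 10, with Benjamini-Hochberg adjusted p under 0.05 over all genes as a call, within each table. Th17 against Th9 used approximate reads of all 9 libraries on 1 scale by TMM (trims 30% and 5%). The fits were tested on simulated data with balanced changes, larger than those of the relatives, in a small share of genes. No outlying library was simulated, so smaller differences and such a library are not covered. Levels per kilobase used GENCODE M21 exons, and promoter windows are from RefSeq (GRCm38.p6). Alternatives were other scalings, pseudocount 5, no filter or a mean of at least 50, array weights, the replicate number as a block, and leaving out each library.

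The members, lists and tests were chosen with earlier results of these data known. Named were all members, and per comparison up to 6 list genes a direction with the largest called difference, a mean of at least 50 and no overlap. A fixed set of list genes (Lpin, Dgat, Cds, Lpcat, Mboat, Gpat, Lclat1 and Abhd5) was named as well. So were the 5 genes most correlated with Agpat1 and 3 for each relative (means of at least 50), genes within 50 kb of Agpat1, and 4 T cell markers.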

Additional observations from a re-analysis of the deposited data

Results flagged for a closer look

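In the direct fit of all 9 libraries, 11 named genes differed (Th17 minus Th9, log2, limma adjusted p under 0.05). Most list genes among them were of those named for passing in this same comparison, so the count of 11 is not a result. In this fit 20.9% of all genes passed. Agpat4 was lower with Th17 than with Th9 by this measure at -0.37 (adjusted p = 0.0119), and lost the call without Th9 replicate 1 (0.0795) or Th17 replicate 1 (0.0774).

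Lower with Th17 were also Dgka at -1.1 (3.38e-06), Acsl6 at -1.05 (1.17e-07), Slc27a1, a fatty acid transporter that also activates fatty acids, at -0.55 (0.000968), Pcyt1b at -0.51 (0.00367), Lpin2 at -0.45 (0.000625), Lclat1 at -0.43 (0.0018), as well as Crls1 at -0.3 (0.0419). Higher with Th17 were Mboat1 at 0.83 (0.000404), Plpp1 at 0.64 (0.0008) and Pcyt1a at 0.38 (0.0242), with limma adjusted p in parentheses. Crls1 lost its call without any 1 of the Th9 and Th17 libraries (0.0545 to 0.207). Pcyt1a lost its call without Th9 replicate 1 (0.114), Th9 replicate 3 (0.0805), Th17 replicate 2 (0.0791) or Th17 replicate 3 (0.0757), and with the same total per library (0.165). T cell markers summed to 1732 to 2456 with Th9 and 188 to 222 with Th17, in separately normalised tables, and their part in these differences was not tested. Over the whole list, 57 genes were tested, 4 were called higher and 10 lower, which is 24.6% of them.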

How the results depend on the processing

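The log2 difference of Agpat1 was 0.81 to 1.05 with Th9 and 0.92 to 1.02 with Th17 over 13 alternatives each, and no direction of a called result turned. Scaling to the same total gave Th9 against Th0 2252 genes higher and 794 lower (1937 and 1716 as reported), 0 relatives lower and 3 list genes lower; Th17 against Th0 20 genes lower; and Th17 against Th9 683 genes and 2 list genes higher. The same total without the 3 RNA genes gave Th17 against Th0 345 higher and 102 lower. With no filter, 2 list genes were higher with Th17. Array weights gave 3302 genes higher and 3326 lower with Th9 (13 list genes lower), 1572 and 1789 with Th17 (10 list genes higher, 4 lower, and 1 relative higher, Agpat5), and 2464 higher and 2531 lower in Th17 against Th9 (8 and 16 list genes; 2 members higher, Agpat2 and Agpat3, and 2 lower, Agpat4 and Agpat5). The causes were not tested.

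Leaving out 1 library at a time, Th9 against Th0 had 1015 (without Th9 replicate 1) to 2594 genes higher and 838 (without Th9 replicate 1) to 2742 (without Th0 replicate 1) lower, 0 to 2 relatives in each direction, and 9 (without Th9 replicate 1 or Th9 replicate 2) to 16 list genes higher and 2 (without Th0 replicate 3 or Th9 replicate 1) to 8 (without Th0 replicate 1) lower. Without Th9 replicate 2, 1131 genes were higher and 947 lower, and without Th0 replicate 3, 1068 were lower. Th17 against Th0 had 14 (without Th17 replicate 3) to 974 (without Th0 replicate 1) genes higher and 2 to 1378 (the same 2 libraries) lower, with 0 relatives in either direction, 0 to 3 list genes higher and 0 to 2 lower, the most without Th0 replicate 1. It had 54 and 8 without Th0 replicate 3, 15 and 4 without Th17 replicate 1, and 42 and 6 without Th17 replicate 2. Th17 against Th9 had 921 (without Th9 replicate 1) to 2354 (without Th0 replicate 1) genes higher, 0 to 1 members in each direction and 2 to 8 list genes higher (8 without Th0 replicate 1; 2 without Th9 replicate 1, Th17 replicate 2 or Th17 replicate 3).

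No clear pairing of the libraries by replicate number was seen, though 3 libraries a group are too few to show that it is absent. Of 9 same-number correlations of deviations, 2 were over 0.1 (range -0.137 to 0.141). Of 18 library-and-group pairs, 7 fitted best with their own number. With the replicate block, 2114 genes were higher and 1962 lower with Th9, 186 and 76 with Th17, and 1347 and 1582 in Th17 against Th9; no member's call changed, Agps was not called with Th17 (adjusted p = 0.064) and Lpcat4 was (0.0205). Depth limits mainly the genes with few reads, of which Gpat2, Mboat2, Cds1 and Dgat2 could not be tested.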
